A study of Aethionema arabicum with 12 samples.

Results

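Imbibed seeds of Aethionema arabicum, an annual of the crucifer family, were compared between the Cyprus accession (CYP) and the Turkish accession ES1020 (TUR) under the same white light. The comparison rests on 6 of the 12 libraries of the study, 3 of CYP and 3 of TUR, chosen by their labels as seeds kept for 23 h at 100 µmol m-2 s-1. The other 6 libraries, 3 per accession, came from seeds kept for 23 h in darkness and served to show which accession differences were also there without light. Only intact, ungerminated seeds were harvested, and their poly(A) RNA was sequenced, so each library is a whole-seed mixture of embryo, endosperm and seed coat. Lower RNA from a gene can then mean fewer cells of a type or less RNA per cell, and these cannot be told apart. The labels do not say whether the 3 libraries of a group came from separate plants or seed lots, so p-values measure the spread between these libraries only.

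Light inhibits germination of CYP seeds and permits it in TUR seeds. Germination in crucifers is held back by abscisic acid (ABA), which keeps seeds dormant and their stress-protective genes active, and is promoted by gibberellin (GA), which triggers loosening of cell walls and growth of the embryo axis. In Arabidopsis thaliana light promotes germination through phytochromes, which raise GA synthesis and lower ABA, in part by removing the repressor PIF1. Gene names below are those of the Arabidopsis gene matched to each A. arabicum model in the deposited table, and the roles given are known from Arabidopsis.

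Of 23594 gene models, 15671 had at least 1 CPM (counts scaled to library size) in at least 3 of the 12 libraries and were tested with edgeR's quasi-likelihood test. A gene was called at a Benjamini-Hochberg adjusted p under 0.05 over all genes tested. Every adjusted p below is edgeR's unless another test is named with it. Levels are CPM scaled by the TMM method, and fold changes are log2 CYP over TUR with an approximate standard error (SE). Each SE was derived as the absolute log2 value divided by the square root of the F statistic of edgeR's test. In light 3906 genes were higher in CYP (24.9% of those tested) and 4359 were lower (27.8%), 8265 in all (52.7%). At least 2-fold differences numbered 924 higher (5.90%) and 1668 lower (10.6%). A call by itself therefore sets a gene little apart, and members of each gene list are read against these shares. A lack of overlap between the accessions in light was as common, at 63.7% of genes tested (4779 higher in CYP, 5199 lower). It held for 8088 of the 8265 called genes, so it adds little to a call. In light the total counts were 12857387, 7757898 and 12916348 in TUR replicates 1 to 3 and 12592460, 11859481 and 13953792 in CYP. Across genes, the log2 CPM of libraries of the same accession correlated at 0.989 to 0.992 and those of different accessions at 0.912 to 0.926. Genes of low level leaned to lower values in CYP. The median log2 fold change was -0.53 in the lowest 10% of genes by level and -0.21 in the next, against -0.05 to 0.04 in the others. The lowest level class leaned the same way in darkness (-0.31). The labels do not name the accession behind the mapping reference, and the part of read mapping in this lean was not tested.

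Among regulators of dormancy, DOG1, MFT and DOGL4 were higher in CYP seeds in light, while SPT, FLC, BME3 and 1 of 2 PIF1 models were lower. DOG1 (AA6G00020), the gene named for delay of germination, had 5.10, 2.37 and 3.02 CPM in TUR and 13.0, 9.76 and 10.7 CPM in CYP. The log2 fold change was 1.63 (SE 0.29, adjusted p = 0.000137), with every CYP library above every TUR library. MFT (AA39G00114), a relative of the flowering protein FT that acts in ABA and GA signalling of seeds, had 82.7, 37.5 and 66.7 CPM in TUR and 323, 303 and 297 CPM in CYP, a log2 fold change of 2.29 (SE 0.21, adjusted p = 5.19e-08). DOGL4 (AA57G00147), a relative of DOG1, had 8.17, 7.85 and 11 CPM in TUR and 37.9, 45.0 and 36.2 CPM in CYP, a log2 fold change of 2.12 (SE 0.16, adjusted p = 2.59e-09). Neither overlapped between the accessions in light. In darkness MFT and DOGL4 were also higher in CYP (1.81 and 1.16), while DOG1 did not pass the test there (0.44, adjusted p = 0.467). The difference between light and darkness was called for DOGL4 (adjusted p = 0.0367, but 0.0601 to 0.0965 in 7 of the fits without 1 library) and not for DOG1 (0.354) or MFT (0.505).

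SPT (AA30G00231), a basic helix-loop-helix factor that controls germination in light and cold, had 10.4, 15.1 and 7.40 CPM in TUR and 2.15, 2.48 and 1.68 CPM in CYP. Its log2 fold change was -2.35 (SE 0.24, adjusted p = 1.87e-07), again without overlap. BME3 (AA216G00002), a GATA factor that promotes germination, had 60.3, 69.3 and 53.0 CPM in TUR and 20.0, 19.6 and 19.2 CPM in CYP (log2 fold change -1.63, SE 0.11, adjusted p = 1.6e-09). FLC (AA44G00277), the flowering repressor that also acts in seeds, differed by -2.12 (SE 0.11) in light and by -2.20 (SE 0.11) in darkness. Of the 2 models matched to PIF1, which represses germination in the dark, AA102G00037 was lower in CYP (-1.45, SE 0.18, adjusted p = 2.99e-06) and AA33G00286 was higher (0.57, SE 0.14, adjusted p = 0.00206). Reads of one could be counted in the other, which was not tested. SOM (AA7G00098), through which PIF1 acts on both hormones in Arabidopsis, did not pass the test (log2 fold change -0.17, SE 0.14, adjusted p = 0.347). Without TUR light replicate 2, the shallowest library in light, its adjusted p was 0.0183. Of the 14 tested models of the dormancy list, 4 were higher and 7 lower in CYP, with a median log2 fold change of -0.28, against -0.02 over all genes tested.

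**Figure D1:**
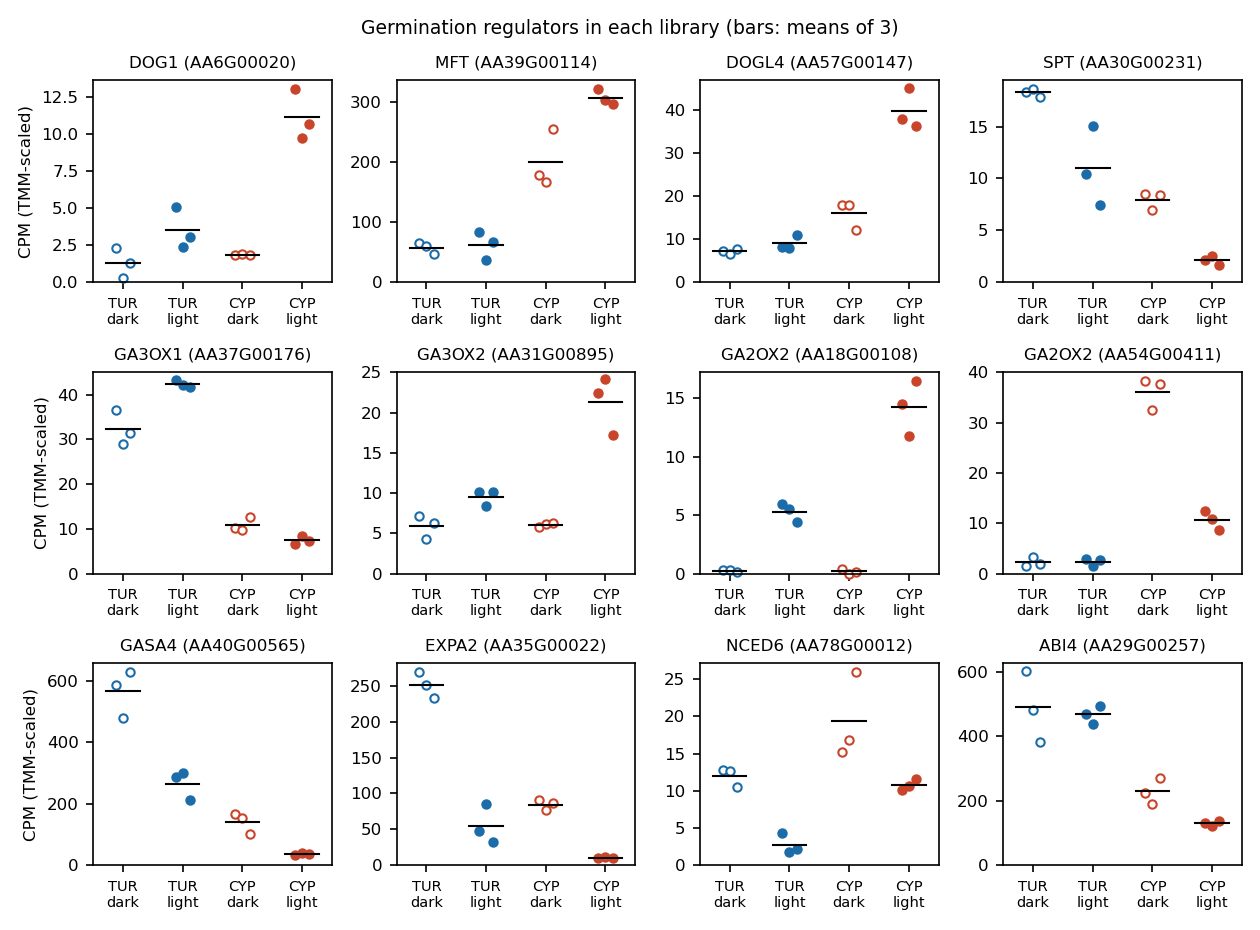
Level of 12 regulators in each library, as TMM-scaled CPM on axes that start at 0, with 1 panel per gene model. Points are single libraries (TUR blue, CYP red, light filled, darkness open) and bars are means of 3. In light the CYP libraries lie above all TUR libraries for DOG1, MFT, DOGL4, GA3OX2, both GA2OX2 models and NCED6, and below them for SPT, GA3OX1, GASA4, EXPA2 and ABI4.

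Genes of GA metabolism did not differ in one direction. Of 7 tested synthesis genes 6 were higher in CYP and 1 was lower, and the lower one was GA3OX1 (AA37G00176), which makes bioactive GA in the last step. GA3OX1 had 43.3, 42.1 and 41.8 CPM in TUR and 6.68, 8.30 and 7.16 CPM in CYP. That gave a log2 fold change of -2.52 (SE 0.13, adjusted p = 1.82e-11) and no overlap. The other tested enzyme of the same step, GA3OX2 (AA31G00895), went the other way, with 10.2, 8.35 and 10.1 CPM in TUR and 22.4, 24.1 and 17.2 CPM in CYP (log2 fold change 1.14, SE 0.16, adjusted p = 1.1e-05). Per length, the mean level of GA3OX1 was 27.7 RPKM (CPM per kilobase of gene length, computed from the counts) in TUR and 4.61 RPKM in CYP, and that of GA3OX2 was 5.51 and 11.7 RPKM. GA3OX1 thus stood above GA3OX2 in TUR and below it in CYP.

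Upstream of this step, GA20OX2 (AA55G00064), which makes the precursors of bioactive GA, was near its floor in TUR (0.824, 0.125 and 0.604 CPM) and had 9.71, 9.24 and 10.4 CPM in CYP (log2 fold change 4.07, SE 0.29, adjusted p = 2.11e-09). The earlier enzymes KO (AA12G00130) and KAO2 (AA32G00528) were higher in CYP by 0.94 (SE 0.12) and 0.89 (SE 0.10) on the log2 scale. GA2OX2, which inactivates GA, had 2 tested models, and both were higher in CYP. AA18G00108 had 5.92, 5.48 and 4.38 CPM in TUR and 14.5, 11.7 and 16.4 CPM in CYP (log2 fold change 1.44, SE 0.20, adjusted p = 8.29e-06). AA54G00411 had 2.85, 1.5 and 2.72 CPM in TUR and 12.3, 10.8 and 8.70 CPM in CYP (log2 fold change 2.1, SE 0.23, adjusted p = 5.28e-07). They differed in their dark levels, where AA18G00108 stayed at or under 0.399 CPM in all 6 libraries and AA54G00411 had 32.5 to 38.3 CPM in CYP and 1.54 to 3.30 CPM in TUR. The accession difference of AA54G00411 was smaller in light than in darkness by 1.95 on the log2 scale (SE 0.34, adjusted p of the difference = 0.00418).

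Of 8 tested genes of GA perception and signalling, 4 were higher and 1 was lower. The receptor GID1A (AA10G00111) was higher in CYP by 1.12 (SE 0.11) and SLY1 (AA39G00811), the F-box protein that marks DELLA repressors for removal, by 1.72 (SE 0.15). The DELLA genes, which hold germination back when GA is low, differed little or in opposite directions. GAI (AA14G00090) was lower in CYP (-0.95, SE 0.17, adjusted p = 0.00015) and RGA (AA53G00639) was higher (0.35, SE 0.12, adjusted p = 0.0253). The RGA call was lost without TUR light replicate 1 (adjusted p = 0.0629) and without CYP light replicate 3 (0.063). RGL2 (AA10G00264), the main DELLA of seed germination, had 569, 556 and 596 CPM in TUR and 602, 606 and 633 CPM in CYP and did not pass the test (0.10, SE 0.09, adjusted p = 0.398). GASA4 (AA40G00565), a small peptide gene that GA induces, had 286, 299 and 212 CPM in TUR and 33.6, 39.1 and 36.4 CPM in CYP. Its log2 fold change was -2.87 (SE 0.17, adjusted p = 2.07e-10), and it was already lower in CYP in darkness (-2.01, SE 0.16). GASA3 (AA9G00183), the other tested member of that family, was higher in CYP by 1.46 (SE 0.14).

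ABA genes also split. In synthesis, NCED6 (AA78G00012), an endosperm enzyme of the step that commits carotenoids to ABA, had 4.35, 1.75 and 2.11 CPM in TUR and 10.1, 10.6 and 11.6 CPM in CYP (log2 fold change 1.92, SE 0.26, adjusted p = 6.32e-06). AAO3 (AA32G00943), which makes ABA in the last step, was higher by 0.78 (SE 0.10). NCED9 (AA31G00716), of the same family as NCED6, was lower (-0.66, SE 0.21, adjusted p = 0.0117), a call lost without TUR light replicate 3 (adjusted p = 0.073) or CYP light replicate 2 (0.0762). CYP707A2 (AA32G00787), which breaks down ABA in imbibed seeds, had 71.5, 62.2 and 81.1 CPM in TUR and 86.6, 91.7 and 81.9 CPM in CYP. It missed the threshold at an adjusted p of 0.0501 (log2 fold change 0.27, SE 0.11) and passed it without TUR light replicate 3, CYP light replicate 3 or CYP dark replicate 3 (0.0138, 0.0446 and 0.0267). The 2 models matched to its relative CYP707A3 went opposite ways, AA6G00060 lower (-1.67, SE 0.10) and AA57G00196 higher (0.61, SE 0.20), the latter with an adjusted p of 0.0827 without TUR light replicate 3.

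Receptors of ABA were mostly lower in CYP, 7 of 11 tested models against 1 higher, with a median log2 fold change of -0.90. PYL4 (AA805G00002) had 57.6, 73.5 and 53.5 CPM in TUR and 8.19, 10.01 and 7.45 CPM in CYP (log2 fold change -2.84, SE 0.15, adjusted p = 2.16e-11). PYL6 (AA29G00245) and PYL8 (AA11G00152) were lower by -2.40 (SE 0.17) and -1.73 (SE 0.29), while a PYL9 model (AA1G00061) was higher by 2.26 (SE 0.22). In darkness 8 receptor models were lower and 2 were higher. Of 10 phosphatases and kinases of the pathway 6 were higher and 3 lower. All 3 tested HAI phosphatases, which ABA induces and which damp its signal, were among the higher, at 0.47 to 0.64 on the log2 scale.

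ABI4 (AA29G00257), an ABA response factor, had 469, 440 and 495 CPM in TUR and 132, 122 and 136 CPM in CYP, without overlap (log2 fold change -1.85, SE 0.15, adjusted p = 7.42e-09). ABI3 (AA109G00007), a master regulator of seed maturation, was lower by a smaller amount (-0.33, SE 0.09, adjusted p = 0.0061). ABI5 (AA60G00170), the factor that arrests growth of ABA-treated embryos, had 371, 251 and 343 CPM in TUR and 356, 321 and 333 CPM in CYP and did not pass the test (0.06, SE 0.15, adjusted p = 0.73). AREB3 (AA61G00149) and ABF1 (AA2G00098), which bind ABA-responsive promoters, were higher by 0.84 (SE 0.16) and 0.69 (SE 0.15).

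Late embryogenesis abundant (LEA) genes, whose proteins protect drying seeds, were mostly higher in CYP. Of 9 tested models of this list 5 were higher and 2 lower, with a median log2 fold change of 0.69. LEA4-5 (AA83G00024) had 830, 562 and 822 CPM in TUR and 1700, 1924 and 1784 CPM in CYP (log2 fold change 1.29, SE 0.12, adjusted p = 8.36e-08). EM6 (AA29G00261), an abundant protein of dry seeds, had 49.2, 24.6 and 36.1 CPM in TUR and 112, 153 and 109 CPM in CYP (1.75, SE 0.20, adjusted p = 7.37e-07), and its relative EM1 (AA215G00006) was higher by 1.35 (SE 0.13). RD29B (AA55G00020), a standard reporter gene of ABA response, had 369, 305 and 379 CPM in TUR and 632, 650 and 638 CPM in CYP (0.87, SE 0.10, adjusted p = 1.03e-06). In all of these TUR light replicate 2 was the lowest library, and the groups did not overlap. The dehydrins ERD14 (AA31G00345) and ERD10 (AA39G00289) were lower in CYP by -2.79 (SE 0.35) and -2.07 (SE 0.17).

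In darkness the LEA list looked different, with 4 models higher and 4 lower and a median of -0.05. The accession difference was higher in light than in darkness for LEA4-5 (by 0.91, SE 0.17, adjusted p of the difference = 0.0068), EM1 (by 0.74, SE 0.18, 0.0347), RD29B (by 0.92, SE 0.14, 0.00135) and ECP63 (AA60G00129, adjusted p = 0.00969). None of the 9 had a lower difference in light. Over all genes tested, the difference was higher in light for 64 (0.408%) and lower for 287 (1.83%). The EM1 call was lost in 7 of the fits that each left out 1 of the 12 libraries (adjusted p 0.0532 to 0.0979). ECP63 itself did not pass the test in light (-0.20, SE 0.13, adjusted p = 0.188) and was lower in CYP in darkness (-1.11, SE 0.13).

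Seed storage and oil body genes were higher in CYP in 8 of 12 tested models and lower in 1, with a median of 0.98, and 5 of the higher were so at least 2-fold. Without CYP light replicate 2, 2 models were lower. The 4 oleosins, which coat oil bodies, were all higher by 0.97 to 1.36, and all were also higher in darkness (0.49 to 0.71). The lowest of these dark values, that of OLEO3 (AA41G00039, 0.49, adjusted p = 0.0268), did not pass when any 1 of replicates 1 and 2 of either dark group was left out (0.0743 to 0.211) and was 0.29 without CYP dark replicate 2. OLEO1 (AA131G00012), for example, had 1411, 730 and 1250 CPM in TUR and 2222, 2421 and 2308 CPM in CYP (1.04, SE 0.19, adjusted p = 0.000177). The 2S albumin SESA5 (AA25G00010) had 62.2, 38.1 and 51.7 CPM in TUR and 2937, 3223 and 2639 CPM in CYP, a log2 fold change of 5.85 (SE 0.33, adjusted p = 7.53e-11). Another 2S albumin model, SESA3 (AA32G01115), was lower in CYP (-1.76, SE 0.29). Albumin genes are near copies of each other, and the labels do not state how reads shared between copies were counted. Summed over the list, TUR light libraries had 8035, 4301 and 6763 CPM and CYP light libraries 14638, 16021 and 15048 CPM, and without SESA5 the range was 4263 to 7973 in TUR and 11701 to 12797 in CYP.

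Genes that consume the reserves did not mirror the storage genes. Of 16 tested, 7 were higher and 3 lower, with a median of 0.22. The glyoxylate cycle enzymes ICL (AA26G00814, 0.24, SE 0.11, adjusted p = 0.0645) and MLS (AA19G00204, 0.06, SE 0.10, adjusted p = 0.638) did not pass the test. PCK1 (AA30G00293), which turns the carbon of oil towards sugar, was higher by 0.63 (SE 0.12), the lipase gene SDP1 (AA19G00193) by 0.55 (SE 0.09) and LACS7 (AA40G00101) by 1.17 (SE 0.09), while ACX2 (AA4G00241), of fatty acid breakdown, was lower by -1.13 (SE 0.09). Without CYP light replicate 3 4 members were higher.

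**Figure D2:**
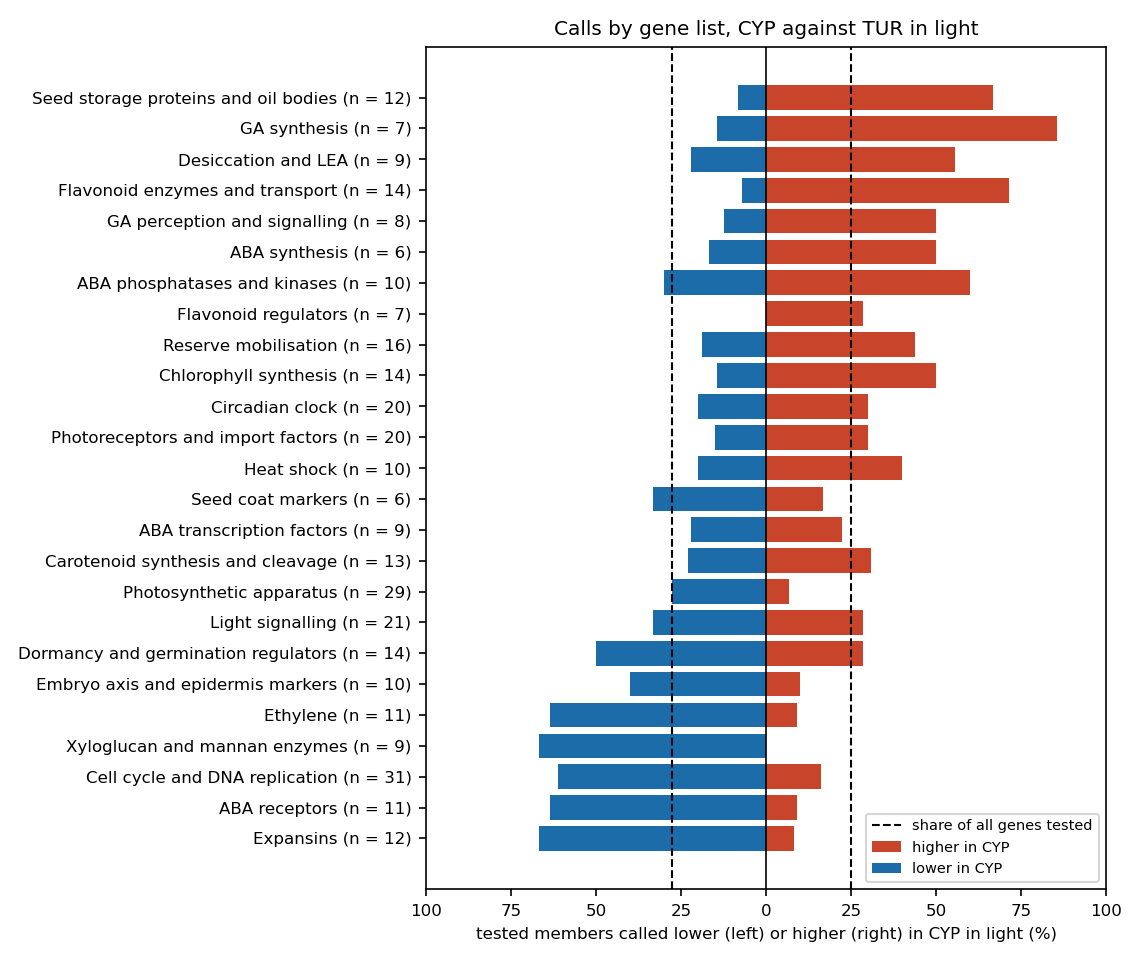
Share of the tested members of each gene list with at least 5 tested members that were called higher (right, red) or lower (left, blue) in CYP in light, in percent of the tested members (n in brackets), ordered by the median log2 fold change of the list. Dashed lines mark the shares over all genes tested, 24.9% higher and 27.8% lower. Among the lists drawn, storage proteins lie at the top (8 of 12 higher) and expansins at the bottom (8 of 12 lower).

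Most expansins and all tested XTH genes, of cell wall loosening, were lower in CYP. Of 12 tested expansins, proteins that let walls extend, 8 were lower and 1 was higher, with a median log2 fold change of -1.27. Without TUR light replicate 3, 2 were higher. EXPA2 (AA35G00022), an expansin of the endosperm during germination, had 47.0, 85.3 and 32.8 CPM in TUR and 9.39, 11 and 10.3 CPM in CYP (-2.40, SE 0.24, adjusted p = 1.55e-07). EXPA14 (AA25G00163) had 15.8, 17.2 and 11.6 CPM in TUR and 2.23, 2.57 and 1.90 CPM in CYP (-2.73, SE 0.21, adjusted p = 5.53e-09). Neither overlapped between the accessions. EXPA3 (AA60G00003), the expansin with the highest CPM in both accessions, was higher in CYP by 0.38 (SE 0.12, adjusted p = 0.0161), and with it the list summed to 1017 to 1149 CPM in TUR and 922 to 1031 CPM in CYP, which overlap. Without EXPA3 the sums were 577 to 694 CPM in TUR and 362 to 400 CPM in CYP.

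Among enzymes that remodel xyloglucan, all 5 tested XTH models were lower in CYP in light, by -0.70 to -3.21. XTH4 (AA110G00001) had 90.8, 99.1 and 85.1 CPM in TUR and 21.6, 22.8 and 21.4 CPM in CYP (-2.06, SE 0.11, adjusted p = 5.14e-11), and XTH9 (AA32G00336) was lower by -2.23 (SE 0.16). Of the 4 mannanases, which degrade endosperm walls, 1 was lower. MAN7 (AA8G00079) had 179, 166 and 198 CPM in TUR and 188, 208 and 179 CPM in CYP and did not pass the test (0.08, SE 0.09, adjusted p = 0.477).

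Ethylene genes, which promote germination, were lower in 7 of 11 tested models and higher in 1 (EIN3). All 4 ACC oxidases, which make ethylene in the last step, were lower in light (-1.44 to -2.84) and in darkness (-1.44 to -3.01). ACO5 (AA31G00244) had 47.3, 49.0 and 31.9 CPM in TUR and 7.32, 7.44 and 5.55 CPM in CYP (-2.65, SE 0.16, adjusted p = 2.73e-10). The EIN3 call (AA26G00737, 0.24, SE 0.09, adjusted p = 0.0332) was lost without TUR light replicate 3 (0.0876), CYP light replicate 1 (0.0662) or CYP light replicate 2 (0.0504).

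Genes of DNA replication were mostly lower in CYP seeds in light. Of 31 tested models of the cell cycle and replication list, 19 were lower and 5 higher, 15 of the lower at least 2-fold, and the median log2 fold change was -0.84. All 8 models of the MCM2 to MCM7 helicase, which unwinds DNA at replication forks, were lower, by -0.82 to -1.36. MCM2 (AA44G00552) had 111, 122 and 109 CPM in TUR and 50.8, 41.7 and 49.2 CPM in CYP (-1.27, SE 0.10, adjusted p = 9.81e-09). Models AA123G00008 and AA123G00009 both match MCM4, and AA56G00051 and AA56G00052 both match MCM3, and whether these are parts of 1 gene was not tested. All 3 models of the licensing factor CDT1A were lower (-1.43 to -1.55), as were ORC1A (AA6G00295, -1.82, SE 0.17) and the sliding clamp gene PCNA2 (AA32G00739, -1.08, SE 0.10). TSO2 (AA53G00911), a ribonucleotide reductase subunit that supplies DNA precursors, had 106, 112 and 104 CPM in TUR and 27.5, 28.4 and 33.7 CPM in CYP (-1.84, SE 0.11, adjusted p = 1.49e-10).

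Other genes of the cell cycle were not all lower. CYCB1;1 (AA30G00259), a cyclin of mitosis, had 21.3, 20.1 and 18.3 CPM in TUR and 23.0, 24.1 and 25.4 CPM in CYP and did not pass the test (0.28, SE 0.13, adjusted p = 0.0658), and neither did CDKB2;1 (AA31G00309, -0.20, SE 0.16, adjusted p = 0.305). A model of the cyclin-dependent kinase CDKA;1 (AA96G00129) was higher by 0.62 (SE 0.09). KRP1 (AA46G00219), an inhibitor of that kinase, had the most negative log2 fold change of the list, with 13.1, 16.0 and 13.8 CPM in TUR and 0.875, 0.599 and 0.731 CPM in CYP (-4.25, SE 0.22, adjusted p = 2e-11), whereas its relative KRP2 (AA13G00055) was higher (1.57, SE 0.47, adjusted p = 0.00894, and 0.0587 without TUR light replicate 1).

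In darkness 14 of the 31 models were lower, 3 were higher and 14 were not called. In the MCM set 7 of 8 models were called lower there, at -0.34 to -0.57 over the set, and for 6 of the 8 the difference between light and darkness itself was called. Of the 3 CDT1A models 1 was called lower in darkness. TSO2 differed by -0.73 (SE 0.10) in darkness, and the difference in light was lower by 1.11 on the log2 scale (SE 0.15, adjusted p of the difference = 0.000448). Over the whole list 9 of 31 models had a lower difference in light and 0 a higher one, against 1.83% and 0.408% of all genes tested. In light the list summed to 1115 to 1194 CPM in TUR and 744 to 779 CPM in CYP.

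**Figure D3:**
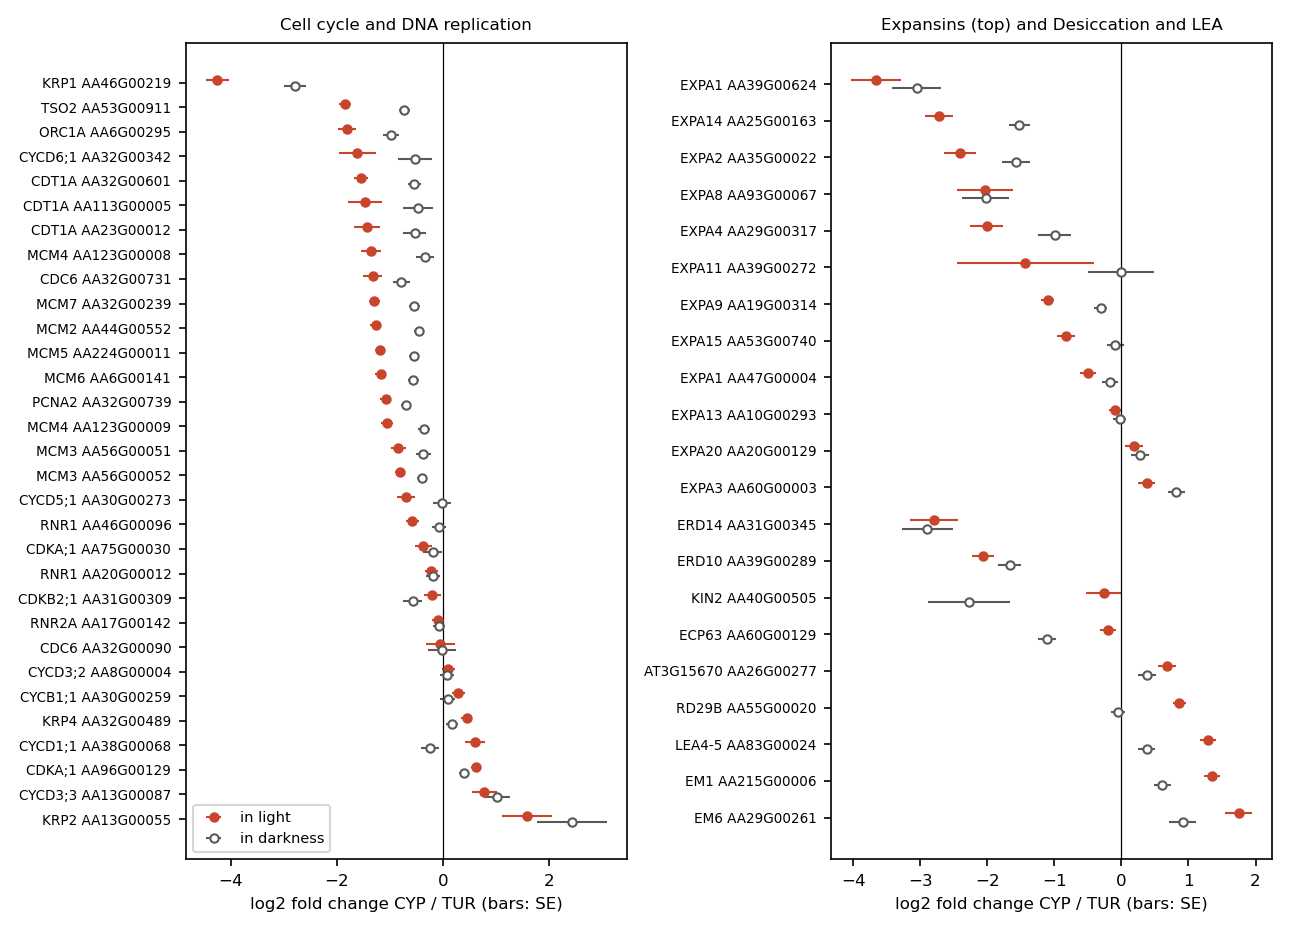
Log2 fold change of CYP over TUR in light (red, filled) and in darkness (grey, open) for each tested model of the cell cycle list (left) and of the expansin and LEA lists (right). Bars are 1 approximate SE, derived from the fold change and the F statistic of edgeR's test. The MCM, CDT1A, TSO2 and ORC1A models lie further below 0 in light than in darkness, while LEA4-5, EM1 and RD29B lie further above 0 in light.

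Flavonoid genes were mostly higher in CYP in light, with a smaller median than in darkness. Of 14 tested enzymes and transport genes 10 were higher and 1 lower in each condition, with a median log2 fold change of 0.48 in light and 1.05 in darkness. F3H (AA13G00009), which makes dihydroflavonols, had 484, 537 and 586 CPM in TUR and 4324, 4374 and 4851 CPM in CYP (3.08, SE 0.16, adjusted p = 4.23e-11). The difference of F3H in light was lower than that in darkness by 2.07 (SE 0.22, adjusted p of the difference = 5.21e-05), since TUR libraries had 33.8 to 51.7 CPM in darkness and CYP libraries 1208 to 1932 CPM. CHS (AA32G01209), the first enzyme of the pathway, was higher in CYP by 0.49 (SE 0.11) in light and 1.18 in darkness, and DFR (AA3G00224), of the anthocyanin branch, by 0.35 (SE 0.11) and 1.36. The difference was called lower in light than in darkness for 7 of the 14 and higher for 0.

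Photoreceptor, light signalling and clock genes had called shares near those of all genes, and no direction stood out. Of 20 photoreceptor and import models 6 were higher and 3 lower, of 21 light signalling models 6 and 7, and of 20 clock models 6 and 4. The number lower in light signalling was 2 to 4 without any 1 of TUR light replicates 1 to 3 and CYP light replicates 2 and 3, and the number of higher clock models was 10 without CYP dark replicate 3. PHYB (AA26G00394), the main red light receptor, was lower by -0.39 (SE 0.11, adjusted p = 0.00476). PHYA (AA65G00005), the receptor that dominates in seeds imbibed in darkness, had 195, 217 and 181 CPM in TUR and 235, 213 and 233 CPM in CYP and did not pass the test (0.20, SE 0.10, adjusted p = 0.0937). It passed without TUR light replicate 2 (0.0294), CYP dark replicate 3 (0.0454) or CYP light replicate 2 (0.0484). HY5 (AA44G00380), a central activator of light-induced genes, was higher by 0.47 (SE 0.17, adjusted p = 0.0257), a call lost without TUR light replicate 2 (0.0983), TUR light replicate 3 (0.0596) or CYP light replicate 1 (0.0752). PIF3 (AA42G00002), a partner of phytochromes, was lower by -1.55 (SE 0.12).

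The lists of plastid genes did not share one direction, with more chlorophyll synthesis models higher than lower and the reverse for the photosynthetic apparatus. Of 29 tested models of the photosynthetic apparatus 2 were higher and 8 lower, with a median of -0.01, and those that differed at least 2-fold included RBCS1B (AA27G00028, -3.95, SE 0.45) and PSBQ1 (AA57G00329, -3.03, SE 0.38), both under 5 CPM in every light library. Without TUR light replicate 2 or CYP light replicate 2, 1 model was higher. Of 14 chlorophyll synthesis models 7 were higher and 2 lower, and of 13 carotenoid models 4 were higher and 3 lower. The number of lower chlorophyll models was 1 without TUR light replicate 1. Heat shock models were higher in 4 and lower in 2 of 10, among the higher the seed factor HSFA9 (AA65G00102, 1.06, SE 0.15). Without TUR light replicate 3, 1 was lower.

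Markers of seed tissues were compared, since a shift in tissue shares would move many genes together. Epidermis and embryo axis markers summed to 384 to 465 CPM in TUR and 202 to 220 CPM in CYP in light. Of 10 tested, 4 were lower and 1 was higher (0 higher without TUR light replicate 3). Much of that sum was FDH (AA32G01045), an epidermal enzyme of very-long-chain fatty acid synthesis, with 236, 268 and 205 CPM in TUR and 58.5, 59.0 and 64.5 CPM in CYP (-1.96, SE 0.11, adjusted p = 6.96e-11). Without it the sums were 177 to 197 and 143 to 156 CPM. The epidermal identity genes ATML1 (AA57G00375, -0.02, SE 0.10) and PDF2 (AA6G00252, -0.16, SE 0.09) did not pass the test, while PDF1 (AA21G00071) was lower by -0.99 (SE 0.22). Endosperm markers summed to 168 to 200 CPM in TUR and 191 to 218 CPM in CYP, which overlap, and the defining markers ZOU and MEA had 0 reads in light. The sum thus held only MAN7, which made up most of it, and NCED6, which was higher in CYP. It follows the level of a single gene and does not give the endosperm share. Seed coat markers summed to 103 to 116 CPM in TUR and 88 to 90 CPM in CYP, with TT1, TT16 and TT12 at 0. The part of tissue shares in the gene differences above was not tested.

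FDH is also a member of the 3-ketoacyl-CoA synthases, enzymes that elongate fatty acids for cuticle and seed oil, a group chosen here after its values were seen. Of 16 tested models 10 were lower in CYP in light and 1 was higher, against 3 and 2 in darkness. AA39G00688, matched to 3-ketoacyl-CoA synthase 6 of cuticular wax, had 21.7, 28.4 and 15 CPM in TUR and 0.398, 0.941 and 1.39 CPM in CYP (-4.52, SE 0.32, adjusted p = 1.47e-09). Its difference was lower in light than in darkness by 2.87 (SE 0.47, adjusted p of the difference = 0.00218). With genes of at least 5 CPM alone, 6 models were lower, and without CYP dark replicate 3, 2 were higher.

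The accession difference in light was mostly one that also stood in darkness. No library is shared between these comparisons. Of the genes higher in CYP in light, 2769 were also higher in darkness, 70.9% of the light calls and 78.9% of the dark calls. Of those lower in light, 2921 were also lower in darkness (67.0% and 84.5%). In darkness 3509 genes were called higher (22.4%) and 3458 lower (22.1%), 6967 in all (44.5%). Opposite calls were few, with 6 genes higher in light and lower in darkness and 8 the reverse. Across genes the log2 fold changes in light and darkness correlated at 0.893, a description over genes that share annotation and mapping.

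**Figure D4:**
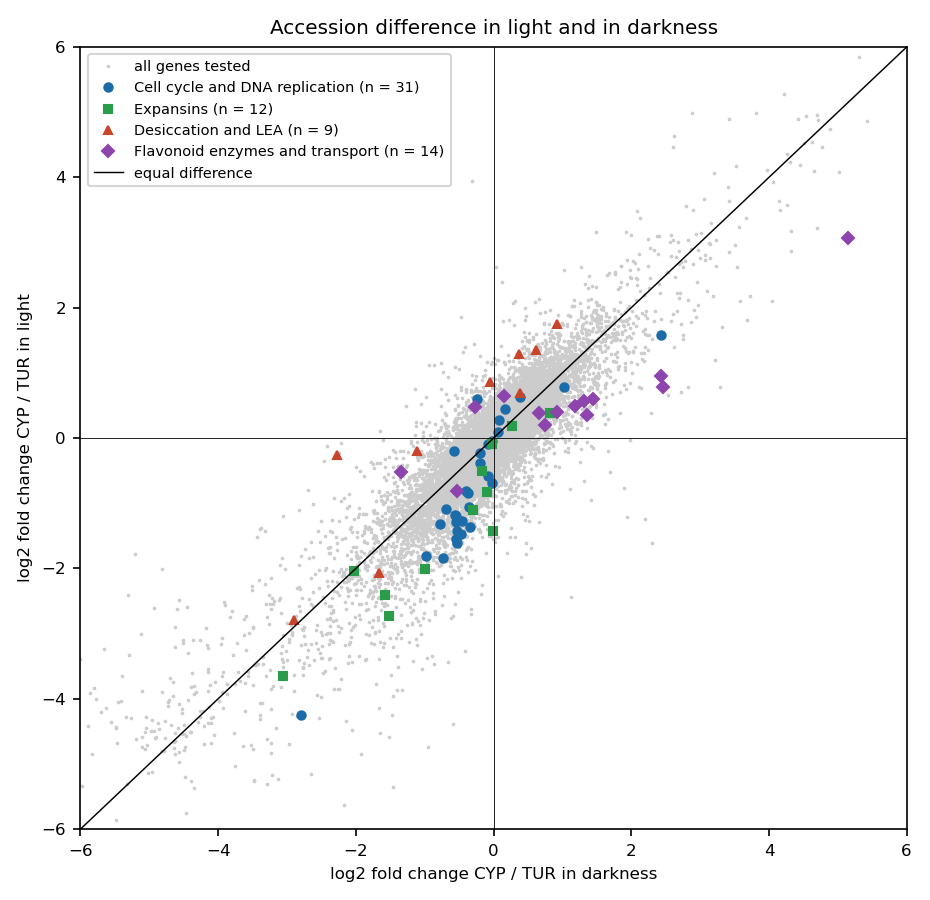
Log2 fold change of CYP over TUR in light (y axis) against darkness (x axis) for all genes tested (grey) and the members of 4 lists (colours and shapes), with the line of equal difference. Cell cycle members lie mostly below the line and LEA members mostly on or above it, and 79 models lie beyond the axes, which end at 6.

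Genes called in light, not called in darkness and with a called difference between them were led, among those lower in CYP, by PRP4 (AA20G00061), a proline-rich cell wall protein. PRP4 had 21.5, 26.5 and 19.1 CPM in TUR and 2.47, 2.91 and 1.61 CPM in CYP in light (-3.26, SE 0.30), and 11.7 to 20.4 CPM in TUR and 8.49 to 19.6 CPM in CYP in darkness (-0.41, SE 0.25). In darkness its adjusted p was 0.0075 without CYP dark replicate 3, the library in which it was highest in CYP, or 0.0358 without TUR dark replicate 3. It was followed by an auxin-responsive SAUR model (AA31G00395, -2.02), GSTF3 (AA32G00281, -1.89), the alternative oxidase AOX1A of mitochondria (AA17G00044, -1.82), bHLH71 (AA56G00017, -1.55) and an ovate family model (AA60G00189, -1.52). GSTF3 was also called lower in darkness without CYP dark replicate 3 (-0.60, adjusted p = 0.002, against -0.31). AOX1A missed the threshold in darkness narrowly (-0.48, adjusted p = 0.0533). It passed under 5 alternatives, at 0.0165 with limma on log2(RPKM + 1) and at 0.0303 to 0.0457 in the edgeR fits. Those higher in CYP were led by an aldehyde dehydrogenase gene (AA22G00103, 1.19), GA3OX2 and a DNA-3-methyladenine glycosylase gene (AA148G00005, 1.14). The call of the difference between light and darkness was lost without at least 1 library for AA31G00395, AOX1A, AA22G00103, GA3OX2 and AA148G00005, with adjusted p-values of 0.0502 to 0.125. Uricase (AA53G01269), an enzyme of purine breakdown, was among the genes called in opposite directions, with -0.64 (SE 0.13) in light and 0.55 (SE 0.15) in darkness. Its dark call was lost without CYP dark replicate 1 (0.40, adjusted p = 0.0539).

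Among called genes with a described match, at least 5 RPKM in the higher light group, at least 10 reads in the lower and no overlap of light libraries, those with the largest differences in light were taken. A ribonuclease H-like model (AA28G00010) had 0.300, 0.374 and 0.302 CPM in TUR and 104, 117 and 105 CPM in CYP, a log2 fold change of 8.37 (SE 0.21) against 8.84 in darkness. A cystatin-like model (AA44G00714) was higher in CYP by 7.52 (SE 0.15), while another model with the same match (AA44G00707) was lower by -4.56 (SE 0.14). The most negative value among these genes was that of a lateral organ boundaries (LOB) domain model (AA31G00681), with 20.3, 14.7 and 16.8 CPM in TUR and 0.477, 0.171 and 0.585 CPM in CYP (-5.33, SE 0.30). For each of the 4 models named here the adjusted p of the difference between light and darkness was at least 0.78.

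Some models had almost no reads in one accession. Of 15671 tested models, 36 had at most 3 reads over all 6 CYP libraries and 26 had at most 3 over all 6 TUR libraries. An F-box model (AA31G00313) had 0 reads in TUR light libraries and 400 in CYP, at least 116-fold higher against 3 reads over the group. An ankyrin repeat model (AA554G00006) had 3 reads in TUR and 630 in CYP, a ratio of 183 (95% interval 62.5 to 891). In the other direction, the methyl-CpG-binding gene MBD5 model (AA17G00071) had 81 reads in TUR and 3 in CYP, a ratio of 30.9 (95% interval 10.2 to 153), and a GDSL lipase model (AA56G00085) had 111 and 2, a ratio of 63.6 (95% interval 17.2 to 531). These intervals are exact and cover counting error only. The models were chosen for at most 3 reads in one accession and a high RPKM in light in the other. Large ratios were thus set by the choice, and the intervals do not test them. The GDSL lipase model had 119 reads over all 6 TUR libraries, so it was almost without reads in TUR darkness too. Absence of reads can come from the gene or from how reads of that accession mapped, which was not tested. Models without a matched Arabidopsis gene, 716 of those tested, were higher in 26.3% and lower in 26.4%, near the shares of all genes.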

How the data were processed

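Read counts per gene model were deposited by the authors as raw counts for all 12 libraries, with gene length and the matched Arabidopsis (TAIR10) gene, and the same table holds RPKM values made by the authors. Per the submitters' processing notes, bcl2fastq 2.17.1, Trimmomatic, Bowtie2 2.2.3 and HTSeq 0.6.1 were used. Their roles and settings, the genome release, its accession and the strand of counting were not given in the sources used here, so a gene and an antisense partner cannot be told apart. The authors' deposited RPKM of CYP equal those computed from the counts, while those of TUR are 0.123 to 3.36 times (median 2.08), so deposited RPKM were not compared between accessions. RPKM in the text were computed from counts and library totals, without TMM scaling.

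Models with at least 1 CPM in at least 3 libraries were fitted over 4 group means with edgeR 4.0.16 (R 4.3.3), TMM scaling, glmQLFit and glmQLFTest. Contrasts were CYP against TUR in light, in darkness, and the difference between them, with Benjamini-Hochberg adjustment over all 15671 models and a call under 0.05. The script was tested on simulated data in which few genes differed, equally in both directions. With 52.7% of genes called in light, that setting cannot show how scaling or false calls behave here. DESeq2 1.42.0 and limma 3.58.1 served as alternatives, together with other scalings, filters, fits without single libraries, a fit of the 2 groups alone and the replicate number as a block. Intervals of read ratios are exact (95%) and cover counting error only, and the depth of each light library stands in the report.

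Genes were named by these rules: (a) the 10 largest changes per direction with at least 5 RPKM in the higher group, 10 reads in the lower group, no overlap and a described match; (b) up to 3 called members per direction of each of 29 lists; (c) 4 models per direction with at most 3 reads in one accession; (d) 25 genes of dormancy, ABA, GA and light whatever their values; (e) the 6 largest per direction called in light alone with a called difference; (f) the 4 largest called in opposite directions. Of the genes the rules named, a part is described, and further list members (among them RD29B, the MCM genes, OLEO1, ICL, MLS and CHS) were chosen after their values were seen. The members and lists were chosen with earlier results of these data known. Of 439 Arabidopsis genes in the lists 351 had a model.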

Additional observations from a re-analysis of the deposited data

Results flagged for a closer look

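For 33 of the genes named by the rules, the accession difference in light and that in darkness differed by edgeR's quasi-likelihood test of the difference itself (adjusted p under 0.05). Rule (e) took genes for this call, up to 6 per direction, and rule (f) took genes called in opposite directions. The count and its split by direction are thus partly set by the selection. Over all 15671 genes tested, the difference was lower in light for 287 (1.83%) and higher for 64 (0.408%). Values are the log2 fold change of CYP over TUR in light minus that in darkness. They were lower in light for 20 and higher for 13, and 15 lost the call without at least 1 library. These were KRP1 and PHYA (in 11 of the 12 fits that each left out 1 library), AA148G00005 and AA31G00395 (10), EXPA14 and PDF1 (8), EM1, GA3OX2 and DOGL4 (7), AA9G00165 (6), AOX1A and LACS7 (5), AA22G00103 (4), AA6G00008 (2) and GA3OX1 (1). No explanation was tested.

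Among hormone and dormancy genes the values were -1.24 for PYL4, 1.12 for GA3OX2, -0.94 for GA3OX1, -1.95 for GA2OX2 (AA54G00411), 0.96 for DOGL4 and -0.89 for BME3. Among genes of seed maturation and reserves they were 0.74 for EM1, 0.91 for LEA4-5 and 0.56 for LACS7. Growth and cell cycle genes gave -1.20 for EXPA14, -1.45 for KRP1 and -1.11 for TSO2. Pigment genes gave -2.07 for F3H, -1.49 for TT19 (AA40G00386), a glutathione transferase needed for anthocyanin storage, and -1.67 for UGT79B1 (AA11G00065), an anthocyanin glycosyltransferase. Epidermal genes gave -1.62 for FDH and -1.17 for PDF1, and the photoreceptor PHYA gave -0.57.

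Among genes called in light and not in darkness, those higher in CYP were the aldehyde dehydrogenase model AA22G00103 (1.15), the glycosylase model AA148G00005 (0.97), the methyltransferase model AA6G00008 (0.79), the P-loop model AA18G00109 (1.1) and the RING model AA19G00411 (1.11). Those lower were PRP4 (AA20G00061, -2.85), the SAUR model AA31G00395 (-1.75), GSTF3 (AA32G00281, -1.58), AOX1A (AA17G00044, -1.34), bHLH71 (AA56G00017, -1.55) and the ovate model AA60G00189 (-1.75). GSTF3 was also called in darkness without CYP dark replicate 3 (adjusted p = 0.002), and PRP4 without TUR dark replicate 3 or CYP dark replicate 3 (0.0358 and 0.00751). AOX1A was called there under 5 alternatives, at 0.0165 with limma on log2(RPKM + 1) and at 0.0303 to 0.0457 in the edgeR fits. Genes called in opposite directions gave 1.90 for the integrase-type model AA31G00404, -1.19 for uricase (AA53G01269), 1.01 for the oxidoreductase model AA9G00165 and 1.01 for the DnaJ model AA31G00839. One of the opposite calls was lost for uricase without CYP dark replicate 1 (dark adjusted p = 0.0539), for AA9G00165 without TUR dark replicate 1 or 2 or CYP dark replicate 2 (dark, 0.0557 to 0.0944) and for AA31G00839 without TUR light replicate 3 (light, 0.0694).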

How the results depend on the processing

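Of 170 named genes tested in light, 164 were called. Of these, 141 kept the call in each alternative in which they were tested and 23 lost it in at least 1. Some of the named genes dropped out of the fit with at least 5 CPM in 3 libraries and of some fits without 1 library. No named gene tested reversed in light. Genes called in light numbered 7326 to 7468 without any 1 light library (higher 3635 to 3711, lower 3683 to 3757). Of these, 920 to 1034 were higher and 1517 to 1609 lower at least 2-fold. Of the dark libraries only the shallowest, CYP dark replicate 3 (7099578 counts), was left out for this comparison. That gave 9008 calls (4293 higher, 4715 lower, at least 2-fold 920 and 1678). In darkness 5894 to 6940 genes were called with 1 dark library left out (higher 2801 to 3449, lower 3093 to 3491). At least 2-fold higher calls were 534 with limma on log2(RPKM + 1), and at least 2-fold lower calls were 1015 with it and 1077 with at least 5 CPM in 3 libraries, where fewer genes were tested. Calls of the difference between light and darkness, 351 in all, were the least stable. They rose to 452 (112 higher, 340 lower) without CYP dark replicate 3. Without any other 1 library they fell to 163 to 245 (higher 25 to 67, lower 129 to 196). At an adjusted p under 0.01 they were 122 (13 higher, 109 lower), higher calls were 124 with DESeq2, and lower calls were 189 with limma on log2(RPKM + 1). The cause was not tested. Scaling by library totals moved the share of light calls that were lower in CYP from 52.7% to 59.6%, and limma on log2(RPKM + 1) gave 59.5%. The share was 50.0% with the 2 groups alone and 49.8% with at least 5 CPM in 3 libraries. Without any 1 light library it was 49.9% to 50.4%, so the excess of lower calls depended on the fit. The median log2 fold change lay between -0.08 and 0.01 over all alternatives.

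Replicate numbers did not pair the libraries: deviations of same-numbered libraries correlated at -0.353 to 0.182, most under 0.1. With the number as a replicate block, 8101 genes were called in light, 6764 in darkness and 270 for the difference, of which 42 were higher and 228 lower.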

Other observations

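These groups were formed from the words of the gene descriptions after values were seen, and are given as values only. Ribosomal protein models, of the translation machinery, were higher in CYP in light in 47 and lower in 85 of 313 tested, with a median log2 fold change of -0.07, and in darkness in 39 and 86. The number higher in light was 29 with library totals, 27 with limma on log2(RPKM + 1) and 75 with the 2 groups alone. Histone models, which package new DNA, were higher in 2 and lower in 16 of 31, with a median of -0.40, and lower in 20 in darkness. With the 2 groups alone, 4 were higher in light. Immune receptor models were higher in 4 and lower in 23 of 41, with a median of -0.75, and in darkness in 3 and 20. With at least 5 CPM in 3 libraries required, 12 were lower in light. Heat shock protein models were higher in 8 and lower in 14 of 45, with a median of -0.15.

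An arogenate dehydratase gene (AA167G00005), of phenylalanine synthesis, was lower in CYP in light by -4.61 on the log2 scale, and SCD1 (AA10G00496), which acts in cell plate formation, by -4.80. A Rer1 family model (AA46G00206), of protein return to the endoplasmic reticulum, was higher, with 16.3 ± 2.31 CPM in TUR and 298 ± 12.4 CPM in CYP (SD, n = 3).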
